A study of Mus musculus with 6 samples.

Results

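Caveolae are small flask-shaped pits of the plasma membrane. Caveolins sit in the inner leaflet as oligomers, cavins bind to them from the cytosol as a peripheral coat, and ATPases of the EHD family ring the neck of the pit. Caveolae are abundant in fat cells and in endothelium, where they are known for buffering membrane tension and for taking part in fatty acid uptake and insulin receptor signalling. In people, inherited loss of caveolin-1 or cavin-1 causes generalised lipodystrophy, a near absence of fat. The genes described here were taken by symbol, 5 of the 21829 genes in the table: the caveolins Cav1 and Cav2, the coat proteins Cavin1 and Cavin2, and the neck ATPase Ehd2. All 5 averaged 1 FPKM or more over the libraries and were tested, as were 12539 genes in all. FPKM is the number of fragments scaled to the length of the transcript and to the size of the library.

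The libraries came from epididymal white adipose tissue (eWAT), the fat pad beside the testis, and the donors were C57BL/6J males, 20 weeks old and fed a normal diet. There were 3 wild-type (WT) libraries and 3 labelled ZFP251 KO (KO 1 to KO 3 below), the WT mice being littermates. The labels give neither the allele nor the cells in which it acts, nor whether each library stands for its own mouse. Every p-value below is therefore set against a spread among libraries, 3 a group, part of which may be technical. In limma the spread of each gene is drawn toward that of genes at a like level. Its SE, interval and p-value can thus be larger or smaller than the gene's own libraries would give. The series is about a deficiency of this zinc finger protein and its bearing on fat cell size and glucose metabolism.

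Zfp251 itself went against the label, with 6.48, 5.86 and 6.48 FPKM in the libraries labelled KO and 3.73, 3.56 and 2.95 FPKM in WT. Its log2 difference was 0.72 (SE 0.12, limma adjusted p = 0.223), and the smallest limma adjusted p of any tested gene was also 0.223. Each difference below is thus that of the libraries labelled KO and not of a shown loss of the gene. Whether labels were exchanged was not tested, and each difference below would change its sign if they were. Fat cell markers were abundant in every library: Adipoq, which encodes adiponectin, ran from 2097 to 5889 FPKM. One library, WT 3, stood apart. The FPKM of all its genes summed to 638075, against 427108 to 472245 in the other 5 libraries. Its summed endothelial markers (22 genes) were at 658 FPKM, against 1025 to 1378 FPKM elsewhere. Epithelial RNA moved with the groups, the sum of 10 epithelial markers being 99.4 to 202 FPKM in the libraries labelled KO and 8.5 to 85.9 FPKM in WT, with 2 of the 10 at 0 in some library. That of 22 multiciliated cell markers was 121 to 214 against 40.8 to 92 FPKM. The part of these cells in the results below was not tested directly. With a covariate for multiciliated cells the members' differences ran from -0.19 (Cav1) to 0.28 (Cavin2). None passed, but 0 of all 12539 tested genes passed in that fit. The covariate was 0.451 to 1.699 in WT and 1.867 to 2.621 in the libraries labelled KO. It thus moved with the groups and can take up part of their difference.

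Cav2 and Cav1 are neighbours on chromosome 6 and are read in the same direction, with 17.2 kb between the end of the one and the start of the other. Cavin1 lies on chromosome 11, Cavin2 on chromosome 1 and Ehd2 on chromosome 7. In GRCm38 (GENCODE vM21) Cav1 spans chr6:17306335-17341452, Cav2 chr6:17281185-17289115 and Cavin2 chr1:51289126-51302960, all on the plus strand, and Cavin1 spans chr11:100956733-100970887 and Ehd2 chr7:15946958-15967567 on the minus strand. Antisense genes overlap Cav1 and Cav2 (Gm15581) and Cavin2 (9330175M20Rik). The library kit keeps strand, but how strand was used in quantification is not given in the sources used here, so reads from these partners may not be told apart.

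RefSeq promoter windows (GRCm38.p6, 250 bases before to 50 after a start site) were found for all 5 genes, 7 windows in all. The windows of the neighbours Cav2 and Cav1 are shown because those genes had like profiles over the libraries, and that of Cavin2 because its base composition differs. Capitals mark the motifs searched for, on either strand. The GC box was spelled GGGCGG. The CCAAT box was spelled by those letters. The TATA box was spelled TATAAA. The 2 GC boxes of Cav2 overlap by 1 base.
Cav1, chr6:17306085-17306384, plus strand: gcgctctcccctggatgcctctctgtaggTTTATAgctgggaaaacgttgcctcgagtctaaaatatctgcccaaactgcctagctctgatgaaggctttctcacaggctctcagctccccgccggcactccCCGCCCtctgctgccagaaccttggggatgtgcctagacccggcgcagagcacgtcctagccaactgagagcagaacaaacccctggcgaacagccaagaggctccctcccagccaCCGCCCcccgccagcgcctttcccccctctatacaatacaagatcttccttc
Cav2, chr6:17280935-17281234, plus strand: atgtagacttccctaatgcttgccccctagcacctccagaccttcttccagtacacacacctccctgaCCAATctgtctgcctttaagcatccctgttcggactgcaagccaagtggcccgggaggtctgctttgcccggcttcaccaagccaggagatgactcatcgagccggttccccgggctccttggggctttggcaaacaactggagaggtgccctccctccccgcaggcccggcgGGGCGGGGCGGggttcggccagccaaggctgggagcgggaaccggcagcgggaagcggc
Cavin2, chr1:51288876-51289175, plus strand: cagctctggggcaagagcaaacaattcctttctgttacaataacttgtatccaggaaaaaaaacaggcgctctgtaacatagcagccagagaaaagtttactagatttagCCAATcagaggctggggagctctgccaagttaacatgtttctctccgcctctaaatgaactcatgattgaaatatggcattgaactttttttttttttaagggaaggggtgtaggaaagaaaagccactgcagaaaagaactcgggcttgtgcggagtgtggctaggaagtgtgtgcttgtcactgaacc
The Cav1 and Cav2 windows held 13 and 16 CpG dinucleotides and 2 GC boxes each. The Cavin2 window held 4 CpG and 0 GC boxes, and was 43.3% G and C against 59.3% and 64.3% in Cav1 and Cav2. The 300-base windows of Cavin1 (17 and 18 CpG in 2 windows that differ by a shift of 2 bases) and Ehd2 (18 CpG) were like those of the caveolins, and a further Cav1 window had 16 CpG and 0 GC boxes. Of 32851 RefSeq windows of that length, 35.7% held a GC box, 37.4% a CCAAT box and 13.6% a TATA box, and the median CpG count was 7. A CCAAT box was found in the windows of Cav2, Cavin1, Cavin2 and Ehd2, and a TATA box, on the opposite strand, in that of Cav1. These are matches of letters and not shown binding sites.

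Caveolin-1, the protein without which caveolae do not form in these cells, had the most abundant transcript of the 5. Cav1 was at 1546, 1251 and 1764 FPKM in the WT libraries 1 to 3 and at 1399, 1402 and 1363 FPKM in KO 1 to KO 3. The 3 libraries labelled KO lay close together, inside the range of the WT libraries, of which WT 2 was the lowest and WT 3 the highest. The coefficient of variation was 16.9% in WT and 1.58% in the libraries labelled KO, and no test of that difference in spread was made. The log2 difference, labelled KO minus WT on the log2(FPKM + 1) scale, was -0.12 (SE 0.20, 95% interval -0.59 to 0.36, limma adjusted p = 0.807). Without WT 3 it was -0.00, and without WT 2 it was -0.25.

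Caveolin-2, which joins caveolin-1 in mixed oligomers, was at 397, 307 and 428 FPKM in WT and at 348, 308 and 400 FPKM in the libraries labelled KO. The groups overlapped throughout: WT 2 and KO 2 shared the lowest values and WT 3 the highest. The log2 difference for Cav2 was -0.09 (SE 0.18, 95% interval -0.53 to 0.34, limma adjusted p = 0.834). Like Cav1, it was nearer 0 without WT 3 (0.00) and farther from it without WT 2 (-0.23).

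Cavin-1 is the coat protein that caveolae require in all tissues. Cavin1 was at 556, 559 and 477 FPKM in WT and at 466, 431 and 512 FPKM in the libraries labelled KO. KO 3 lay above WT 3, and that pair made the groups overlap. With -0.18 (SE 0.15, 95% interval -0.54 to 0.18, limma adjusted p = 0.62), Cavin1 had the log2 difference farthest from 0 among the 5. Correcting each library for transcript length and GC content gave -0.31 (limma unadjusted p = 0.0429, adjusted p = 0.283), whereas quantile normalization gave 0.13 (adjusted p = 0.804). With a library left out Cavin1 ran from -0.25 (without WT 3, limma unadjusted p = 0.047) to -0.12 (without KO 2). Sample weights gave -0.26 (limma unadjusted p = 0.0142, adjusted p = 0.0822). Of 19 alternatives 3 gave Cavin1 an unadjusted p under 0.05: the correction, the fit without WT 3 and the sample weights. Of all 12539 tested genes 2081, 1716 and 3914 had such a p in these fits.

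Cavin-2, which shapes caveolae in endothelium and some other tissues, had a transcript at 210, 283 and 255 FPKM in WT and at 243, 225 and 242 FPKM in the libraries labelled KO. Here WT 1 was the lowest and WT 2 the highest of the 6, so that Cavin2 ranked the WT libraries unlike Cav1. The log2 difference was -0.06 (SE 0.15, 95% interval -0.42 to 0.30, limma adjusted p = 0.866).

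The neck ATPase EHD2, which holds caveolae at the surface, had the steadiest transcript of the group. Ehd2 was at 308, 277 and 284 FPKM in WT and at 271, 282 and 288 FPKM in the libraries labelled KO, a highest value 1.14 times the lowest. Over the 6 libraries the SD of its log2 values was 0.06, which 2.42% of the tested genes did not exceed. The log2 difference was -0.05 (SE 0.12, 95% interval -0.34 to 0.25, limma adjusted p = 0.883).

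**Figure D1:**
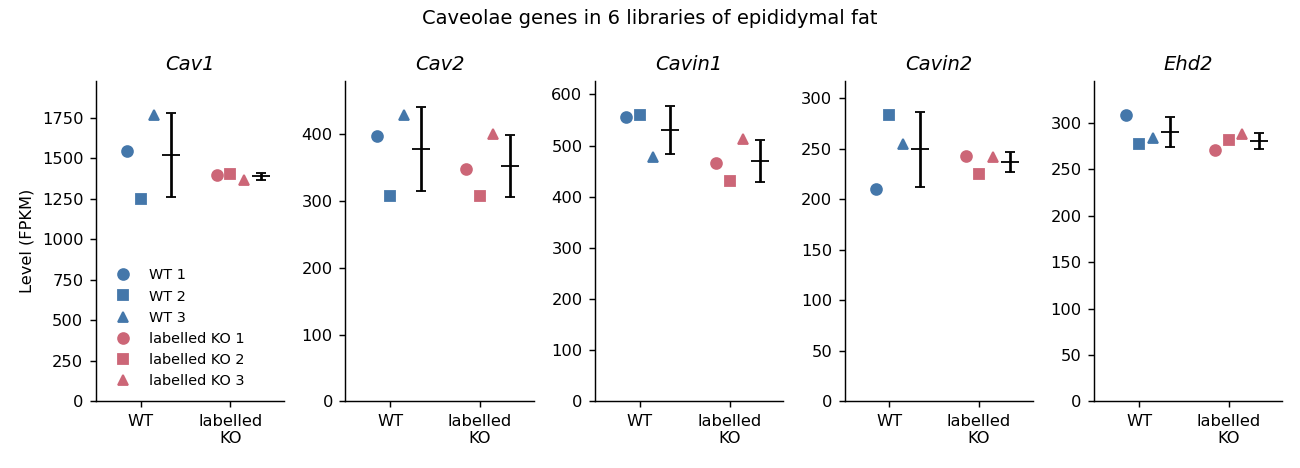
Level in FPKM of each caveolae gene (linear axes from 0) in the 3 WT libraries and the 3 labelled KO, with the mean and SD of each group (n = 3) beside the points; symbols number the libraries. The groups overlap in all 5 genes, and Cav1 spreads from 1251 to 1764 FPKM in WT against 1363 to 1402 FPKM in the libraries labelled KO.

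Of the 5 genes, 0 passed limma's adjusted threshold of 0.05, where 0% of the 12539 tested genes passed, and 0 had an unadjusted p under 0.05, where 13.6% did. The groups overlapped in all 5, while 22.2% of tested genes had groups that did not overlap. All 5 log2 differences were below 0, as were 59.2% of all, but all 5 were above 0 after quantile normalization (0.13 to 0.30) and when libraries were scaled to their own sum (0.09 to 0.22). Their median was -0.09, beside -0.05 for all tested genes. The 95% intervals hold the differences with which these libraries are compatible: for Cav1 they reach from 0.66 to 1.28 times the WT level, for Cav2 from 0.69 to 1.27, for Cavin1 from 0.69 to 1.13, for Cavin2 from 0.75 to 1.23 and for Ehd2 from 0.79 to 1.19.

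**Figure D2:**
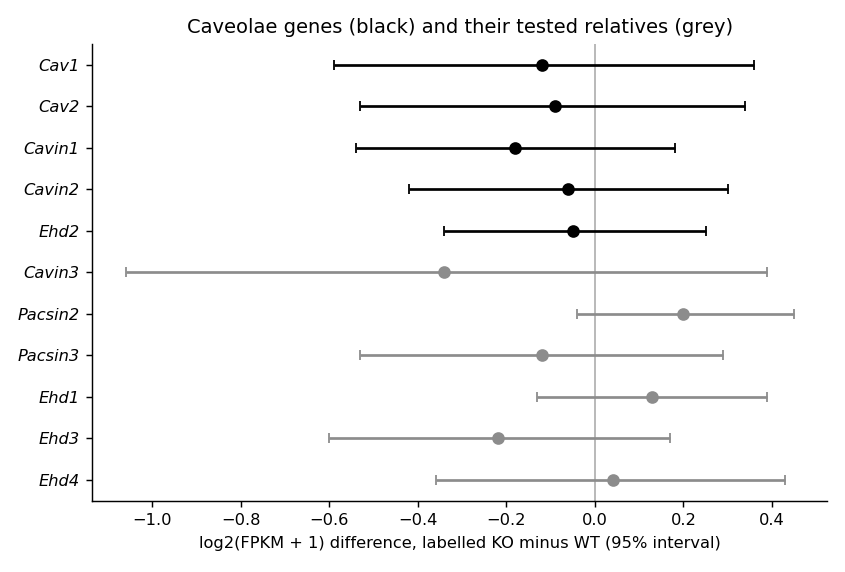
Difference in log2(FPKM + 1), labelled KO minus WT, with limma's 95% interval, for the 5 caveolae genes (black) and the 6 tested relatives (grey); the vertical line is 0. The interval of every gene shown includes 0, and that of Cavin3 is the widest, from -1.06 to 0.39.

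FPKM is scaled per length, so the levels of the genes can be set side by side. Averaged over the 6 libraries, Cav1 (1454 FPKM) ranked 25th of all 21829 genes, Cavin1 (500 FPKM) 102nd, Cav2 (365 FPKM) 158th, Ehd2 (285 FPKM) 215th and Cavin2 (243 FPKM) 252nd. Cav1, Cavin1 and Cav2 held the top places in this order in every library. Ehd2 and Cavin2, which came next, changed places in WT 2. Together the 5 genes made up 0.503% to 0.639% of the summed FPKM of a library, the lowest share being that of WT 3.

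Ratios within a library cancel its scale. The ratio of Cav2 to Cav1 was 0.248 ± 0.00741 (SD, n = 3) in WT and 0.254 ± 0.0372 in the libraries labelled KO, and that of Ehd2 to Cav1 was 0.194 ± 0.0306 and 0.202 ± 0.0087. Cavin1 to Cav1 was 0.359 ± 0.0883 in WT, with the highest (WT 2, 0.447) and the lowest (WT 3, 0.271) of all 6 values, and 0.339 ± 0.0345 in the libraries labelled KO. Between the cavins, the ratio of Cavin2 to Cavin1 was 0.377 in WT 1 and from 0.474 to 0.535 in the other 5 libraries. Against the lipid droplet coat gene Plin1, Cav1 stood at a ratio of 1.27 ± 0.214 in WT and 1.23 ± 0.109 in the libraries labelled KO. Against the endothelial adhesion gene Pecam1 it stood at 20.4, 14.0 and 41.8 in WT and at 20.6, 19.9 and 22.3 in the libraries labelled KO. WT 3 had the least Pecam1 (42.2 FPKM, the rest 61.2 to 89.7) and 1281 FPKM of Plin1 (the rest 1044 to 1222). Plin1 does not stand for its list: the 22 fat cell markers summed to 104817 FPKM in WT 3 and to 44138 to 63580 FPKM in the others. In none of these 6 ratios did the groups differ beyond the spread of the libraries (exact permutation tests, two-sided, p from 0.7 to 0.9, adjusted p = 0.9, the smallest p of 3 against 3 being 0.1).

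**Figure D3:**
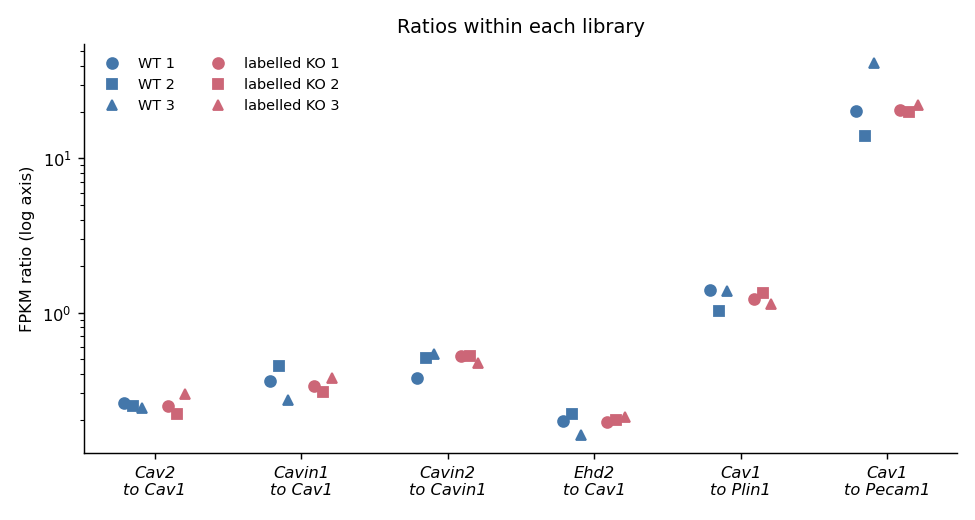
FPKM ratios within each library on a log axis, for the 4 ratios between caveolae genes and for Cav1 against Plin1 and Pecam1; colours give the group and symbols number the libraries. WT and labelled KO overlap in every ratio, and the point at 41.8 for Cav1 to Pecam1 is WT 3.

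How the genes moved among the libraries was compared as the root mean square difference of their centred log2 values over the 6 libraries, a description without a test. The nearest pairs were Cavin1 with Ehd2 (0.121) and Cav1 with its neighbour Cav2 (0.124). Ehd2 hardly moved (SD 0.06), so a small difference from it need not mean a shared movement. All these differences were taken before any length and GC correction. Farthest apart were Cav2 and Cavin2 (0.256) and Cav1 and Cavin2 (0.238). Cav1 deviated from its mean by 0.29 in WT 3 and by -0.21 in WT 2, and Cav2 by 0.24 and -0.23, while Cavin2 deviated by 0.08 and 0.23. The caveolins thus moved in opposite directions in those libraries and Cavin2 did not. The median fat cell marker was at 0.45 in WT 3 and 0.04 in WT 2. The median endothelial marker was at -0.86 and 0.40. Transcript length also moved with WT 3: the median tested gene of 2000 to 3000 nt was at 0.16 there, that of 3000 to 4000 nt at 0.06 and that of 4000 nt or more at -0.11. The part of length and of cell markers in the members' values was not tested directly. The longest annotated transcripts are 2746 nt for Cav1, 2733 nt for Cav2, 3055 nt for Cavin2, 3491 nt for Cavin1 (-0.06 in WT 3) and 5119 nt for Ehd2 (-0.00 in WT 3). After the length and GC correction Cav1 was at 0.12 in WT 3 and -0.16 in WT 2, Cav2 at 0.11 and -0.21, and Ehd2 at 0.21 and -0.06. In a tissue sample, fewer cells of a type and less RNA per cell cannot be told apart.

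**Figure D4:**
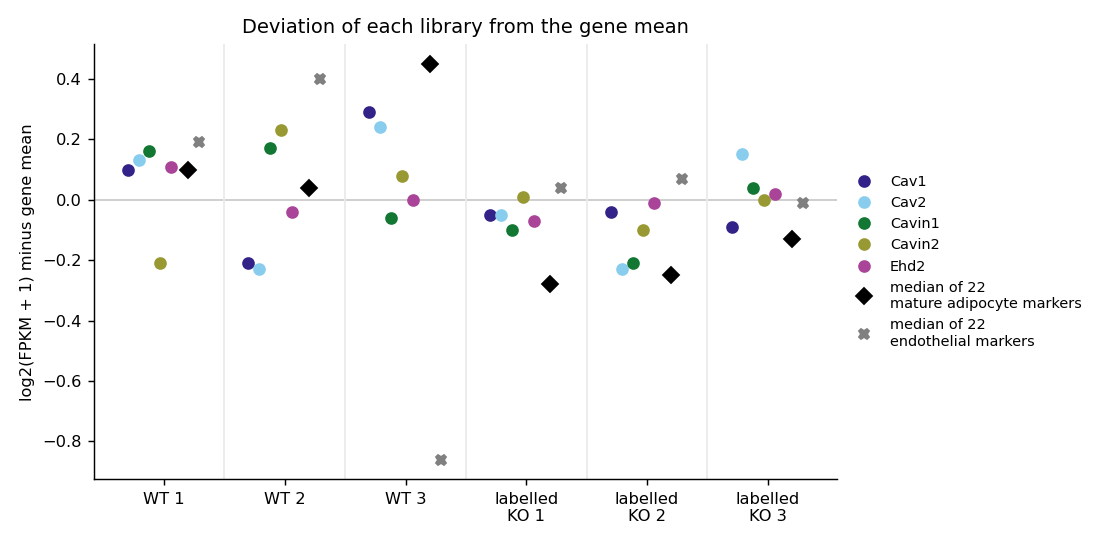
Deviation of log2(FPKM + 1) in each library from the gene's mean over the 6 libraries, for the 5 caveolae genes (circles) and, as medians, for 22 fat cell markers (diamonds) and 22 endothelial markers (crosses). In WT 3 the endothelial median lies at -0.86 and the fat cell median at 0.45, with the caveolae genes between -0.06 and 0.29.

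The tested genes with profiles nearest to Cav1 by the same measure were Slc35a1, the Golgi carrier of CMP-sialic acid (0.023), Aspscr1, which tethers vesicles of the glucose transporter GLUT4 (0.035), and Tm2d1 (0.036). Nearest to Cavin1 were Pheta2 (0.024), the deubiquitinase Usp38 (0.03) and Thbd, thrombomodulin of the endothelial surface (0.032). All 6 lie below the member they resemble in level, the highest being Thbd at 109 ± 6.18 FPKM (SD, n = 3) in WT. They were picked as the nearest among all tested genes over only 6 libraries, so their likeness need not mean a shared role. The nearest tested genes on each side of the caveolin pair are Tes and Met. Tes, which encodes testin of focal adhesions, 175.4 kb before the pair, was at 6.17, 9.23 and 4.18 FPKM in WT and at 7.34, 9.26 and 6.9 FPKM in the libraries labelled KO (log2 difference 0.28, limma adjusted p = 0.639), or 0.03 without WT 3 and 0.53 without WT 2. Met, the hepatocyte growth factor receptor gene 122.3 kb after it, had 16.4, 15 and 12.3 against 12.4, 11.6 and 10.7 FPKM (log2 difference -0.31, limma adjusted p = 0.375). In limma with sample weights the difference was -0.41 (adjusted p = 0.041), in a fit in which 7.74% of all tested genes passed. The weights in that fit were 4.02, 0.472 and 0.142 for WT 1 to WT 3 and 3.15, 1.53 and 0.767 for KO 1 to KO 3. Its WT side thus rested mostly on WT 1. WT 3 was the lowest library for Tes and the highest for Cav1.

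Among the 9 other caveolins, cavins, pacsins (membrane-bending proteins of the caveolar neck) and EHD ATPases, 6 passed the filter. Of these 3 had log2 differences above 0 and 3 below, with a median of -0.04. Of the 6, 0 passed either p threshold, beside 0% of all tested genes for the adjusted and 13.6% for the unadjusted p. Scaled to the library sum 5 were above and 1 below, and after the length and GC correction 1 and 5. Cavin3, the coat subunit tied to signalling, was at 178, 101 and 245 FPKM in WT and at 133, 117 and 140 FPKM in the libraries labelled KO. It ordered the WT libraries as Cav1 did, more widely spread, and its log2 difference was -0.34 (SE 0.31, limma adjusted p = 0.639), or -0.05 without WT 3 and -0.68 without WT 2. Pacsin2 was the 1 tested relative whose groups did not overlap (22.2% of all tested genes), with 24, 27.2 and 24.1 FPKM in WT and 30.5, 29.3 and 27.3 FPKM in the libraries labelled KO. Its log2 difference of 0.20 (SE 0.10, limma adjusted p = 0.444) did not pass, and with sample weights it was 0.28 (limma adjusted p = 0.0493), in a fit in which 7.74% of all tested genes passed. Pacsin3 had 24.4, 23.6 and 36.3 against 24.7, 24.8 and 26.4 FPKM, WT 3 being the high one (log2 difference -0.12, or 0.07 without WT 3). Of the EHD relatives, which act in endosomal recycling, Ehd1 had a mean of 63.7 FPKM over the 6 libraries and a log2 difference of 0.13 (0.07 without WT 3). Ehd4 had 26.4 FPKM and 0.04 (-0.13 without WT 3), and Ehd3 had 6.46 FPKM and -0.22 (-0.07 without WT 1). The muscle forms were near the floor of the table. Cav3 was listed at 0 in WT 1, WT 2 and KO 2 and reached 0.245 FPKM in KO 3, and Cavin4 ran from 0.307 to 0.85 FPKM, beside a sum of skeletal muscle markers of 22.6 to 92.1 FPKM. The neuronal Pacsin1 had at most 0.81 FPKM.

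Proteins that are found in or near caveolae of fat cells and endothelium went both ways. Of 16 tested genes 9 had log2 differences above 0 and 7 below (median 0.01). The split was 6 and 10 without WT 3 and 5 and 11 after the length and GC correction. Of the 16, 0 had an unadjusted p under 0.05, beside 13.6% of all tested genes. Those with the smallest p were the fatty acid transporter Cd36 (log2 difference -0.40, limma adjusted p = 0.40), the adrenergic receptor Adrb3 (-0.41, 0.434), the insulin-regulated glucose transporter Slc2a4 (-0.31, 0.505) and Flot2, a flotillin of membrane microdomains (0.16, 0.537). Slc2a4 had -0.16 without WT 3 and -0.50 without WT 2. Cd36 had 1855, 1773 and 1976 FPKM in WT and 1334, 1377 and 1552 FPKM in the libraries labelled KO. The groups did not overlap, as in 22.2% of all tested genes. The log2 difference of Cd36 was -0.03 after quantile normalization. With sample weights it was -0.43 (limma adjusted p = 0.048), in the fit in which 7.74% of all tested genes passed. Cd36, Slc2a4 and Adrb3 are also among the fat cell markers. The gene of the amine oxidase Aoc3, abundant at the fat cell surface, had 442 ± 22.9 FPKM in WT and 443 ± 19.1 FPKM in the libraries labelled KO (SD, n = 3).

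A list of 11 further genes held those of inherited lipodystrophy and Tbc1d4, known in people for insulin resistance of glucose uptake. All 11 had log2 differences below 0 (median -0.17), beside 59.2% of all tested genes. Of these 2 had an unadjusted p under 0.05, beside 13.6% of all, and 0 passed the adjusted threshold. After quantile normalization 7 of the 11 were below 0, 4 were when libraries were scaled to their own sum, and 5 were with the covariate for multiciliated cells. Bscl2, which encodes the lipid droplet assembly protein seipin, had 237, 204 and 351 FPKM in WT and 151, 169 and 203 FPKM in the libraries labelled KO. Its log2 difference was -0.57 (SE 0.23, limma adjusted p = 0.351), and -0.34 without WT 3. Cidec, which fuses lipid droplets, had -0.49 (adjusted p = 0.367), and -0.06 after quantile normalization. Pcyt1a, of phosphatidylcholine synthesis, had -0.23 (0.408), and Agpat2, an acyltransferase of triglyceride synthesis, had -0.55 (0.562), or -0.12 without WT 3 and -0.94 without WT 2. With sample weights Bscl2, Cidec and Pcyt1a passed (limma adjusted p = 0.0477, 0.047 and 0.0473), as did 7.74% of all tested genes in that fit. The list shares 4 genes with the fat cell markers. Of 22 mature fat cell markers 20 were below 0 (median -0.40), and 12 after quantile normalization (median -0.04).

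Clathrin-coated pits, the other main route of uptake at the surface, gave a comparison set of 16 tested genes. Of these 8 were above and 8 below 0 (median 0.01), and 0 had an unadjusted p under 0.05, beside 13.6% of all tested genes. The split depended on the scaling: 16 were above and 0 below when libraries were scaled to their own sum, 13 and 3 after quantile normalization, and 3 and 13 after the length and GC correction. Fcho2, which starts the pits, had a log2 difference of 0.37 (limma adjusted p = 0.438), or 0.17 without WT 3, and Ap2a2, an adaptor subunit, had -0.24 (0.45), or -0.16 without WT 2. Epn2, an epsin, had 0.27 (0.464), or 0.16 without KO 2, and the clathrin heavy chain Cltc had -0.15 (0.54). Caveolar membrane is rich in cholesterol and sphingomyelin. A list of 10 genes held those of synthesis, breakdown or transport of these and related lipids, so its split mixes unlike roles. Of the 10, 7 were below 0 and 3 above (median -0.05). The split was 4 and 6 after quantile normalization and 1 and 9 when libraries were scaled to their own sum. Sgms2, a sphingomyelin synthase, was the 1 of 10 with an unadjusted p under 0.05, beside 13.6% of all tested genes. Sgms2 had 4.1, 3.19 and 0.912 FPKM in WT and 7.52, 7.04 and 4.41 FPKM in the libraries labelled KO. The log2 difference of 1.06 (SE 0.38, limma adjusted p = 0.301) was 0.64 without WT 3 and -0.01 with the covariate for multiciliated cells. St3gal5, of ganglioside synthesis, had -0.27 (limma adjusted p = 0.491), or -0.42 without WT 3 and -0.16 without WT 2. Sptlc1, of sphingoid base synthesis, had -0.18 (0.508), or -0.10 without WT 3. Smpd2, a sphingomyelinase, had 0.22 (0.574), or 0.05 without WT 2.

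Endothelium and mural cells also carry caveolae, and the direction of their markers turned on WT 3. Endothelial markers had 16 genes above 0 and 6 below (median 0.17), but 1 above and 21 below without WT 3 (median -0.21). With all 6 libraries there were 3 above and 19 below with the covariate for multiciliated cells (median -0.29), and 11 and 11 after the length and GC correction. Mural cell markers had 12 above and 2 below (median 0.33), but 4 above and 10 below without WT 3 (median -0.14).

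The markers of other cells are given as summed levels. Progenitor and fibroblast markers summed to 1868 to 2337 FPKM in WT and 1644 to 2053 FPKM in the libraries labelled KO, mesothelial markers to 52.6 to 113 and 67 to 113 FPKM, and macrophage markers to 793 to 1160 and 723 to 1048 FPKM. The ranges of these 3 lists overlapped. Erythroid markers summed to 1300 to 3533 FPKM in WT, with WT 3 the highest, and to 505 to 1372 FPKM in the libraries labelled KO. Skeletal muscle markers summed to 92.1 FPKM in WT 3 and to 22.6 to 41.4 FPKM in the other 5 libraries, and 5 of the 7 that were tested passed the filter only through WT 3. Of the 22 multiciliated cell markers 19 were tested, 13 of which averaged under 1 FPKM in WT and so passed only through the libraries labelled KO, and of the 10 epithelial markers 9 were tested, 1 of which did so. In every list of markers 0 genes passed limma's adjusted threshold with all 6 libraries weighted alike, where 0 of all 12539 tested genes passed. An unadjusted p under 0.05 was found for 18 of the 19 multiciliated, 9 of the 9 epithelial and 5 of the 5 tested erythroid markers. Other marker lists had at most 2 such genes, and 13.6% of all tested genes were such. Without WT 1, 16 multiciliated and 8 epithelial markers passed the adjusted threshold. In that fit 482 of all 12539 tested genes passed, 469 of them higher in the libraries labelled KO. The covariate for multiciliated cells was 1.699 in WT 1, against 0.461 in WT 2 and 0.451 in WT 3.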

How the data were processed

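Polyadenylated RNA libraries from total RNA of epididymal fat were made with a stranded kit, per the labels' protocols. The submitters' processing notes name Cuffdiff 2.2.1, Cufflinks, STAR 2.5.4 and the build mm10. The gene annotation, any filter and the scaling of libraries are not stated there. The deposited values were read as FPKM, with 1 column per library. The table's header names no unit: it was inferred from those tools and from values that are not whole and sum differently. It holds no counts, so total depth is unknown and no counting intervals are given.

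Of 21853 rows, 24 repeated a symbol and the one with the highest mean was kept. Genes with a mean of 1 FPKM or more entered limma 3.58.1 (R 4.3.3) on the log2(FPKM + 1) scale, with a term for group and a trend of variance with level, two-sided, adjusted over all 12539 tested genes by Benjamini-Hochberg. Fold changes on that scale understate those of low genes. The fit was tested on simulated data. Ratios were compared by exact permutation of the 6 libraries, adjusted over 6 ratios. Lengths and positions came from GENCODE vM21.

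The members and lists were chosen with earlier results of these data known. Named were the members, their 9 relatives, the 4 genes with the smallest p of each pathway list, flanking genes, and the 3 nearest profiles to Cav1 and Cavin1; others, among them Aoc3, were chosen after their values were seen. Alternatives were other pseudocounts and filters, 3 scalings, no trend, sample weights, a length and GC correction (splines), a multiciliated cell covariate, a replicate block and each library left out. Scaling to the library sum was chosen after seeing the data.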

Additional observations from a re-analysis of the deposited data

How the results depend on the processing

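In all 19 alternatives 0 of the 5 genes passed the adjusted threshold. Genes of any kind passed only with sample weights (970, or 7.74% of all tested) and without WT 1 (482). In the other alternatives 0 of all tested genes passed, so those could not set the members apart. The smallest adjusted p was 0.0822, for Cavin1 with sample weights, and the largest was 1. Quantile normalization put the log2 differences above 0, at 0.30 for Cav1, 0.21 for Cav2, 0.13 for Cavin1, 0.22 for Cavin2 and 0.24 for Ehd2. Scaling to the library sum gave 0.15, 0.18, 0.09, 0.21 and 0.22 in the same order, but it moved the median of all tested genes to 0.19. Relative to that median the 5 lay between -0.10 and 0.03. After quantile normalization the median of all tested genes was -0.06, and relative to it the 5 lay between 0.19 and 0.35. Cavin2 was also above 0 with sample weights (0.13) and with the multiciliated cell covariate (0.28), and with a library left out it ran from -0.18 to 0.03. Ehd2 had 0.01 with median-ratio scaling. The cause of these turns was not tested.

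With a library left out, the log2 ratio of Cav2 to Cav1 between the groups ran from -0.09 to 0.12, Cavin1 to Cav1 from -0.25 to 0.11, Cavin2 to Cavin1 from -0.04 to 0.21, Ehd2 to Cav1 from -0.06 to 0.17, Cav1 to Plin1 from -0.18 to 0.05 and Cav1 to Pecam1 from -0.48 to 0.31. With all libraries the values were 0.02, -0.06, 0.11, 0.07, -0.03 and -0.13. The length and GC correction gave 0.03, -0.28, 0.31, -0.16, 0.17 and -0.00 (exact permutation p from 0.1 to 1).

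Over all genes 0 passed the adjusted threshold, with 1700 at an unadjusted p under 0.05. Sample weights gave 970, and leaving out 1 library gave from 0 to 482, the latter without WT 1. The unadjusted count was 3914 with sample weights, 974 among genes averaging 5 FPKM or more, 170 with the covariate, 866 without KO 1 and 882 without KO 2.

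The sample numbers do not pair the libraries by any label, and the deviations of same-numbered libraries correlated across genes at 0.228, -0.2 and 0.22. Those of differently numbered libraries correlated at -0.477 (KO 3 with WT 1) to 0.426 (KO 2 with WT 1). With the number as a replicate block Cav1 had -0.12 and Cavin1 -0.18, 0 genes passed, and no member's call changed. Depth is unknown, so the counting error behind each level cannot be given.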
